A study of Mus musculus with 16 samples.

Results

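The solute carriers are a large class of membrane proteins that move ions, sugars, amino acids, nucleotides and metals across membranes. Their mRNAs were followed here in protrusions and cell bodies of fibroblasts. Members were listed genes with a symbol of the form Slc, a family number, the letter a and a member number. Pseudogenes and a few genes of the class that are not reported here were left out. This gave 172 of the 13015 genes in the table, of which 36 were Slc25a genes and 136 carried other Slc names. The comparison asked whether mRNAs for carriers of mitochondria and mRNAs for carriers of other membranes differed between the fractions, and whether siRNAs against Apc changed them.

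Slc25a proteins are made on ribosomes in the cytosol and imported after synthesis into the inner membrane of mitochondria. Most other Slc proteins carry several membrane-spanning helices and are made by ribosomes bound to the endoplasmic reticulum, from which they travel to the plasma membrane, the Golgi apparatus or lysosomes. By textbook location, 35 Slc25a proteins belong to mitochondria and 1, Slc25a17, to peroxisomes. The other Slc names held 82 carriers of the plasma membrane, 18 of the endoplasmic reticulum or Golgi, 18 of endosomes or lysosomes and 14 with another or a mixed location. A further 4 names (Slc4a1ap, Slc7a6os, Slc9a3r1 and Slc9a3r2) belong to proteins that are not carriers.

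NIH/3T3 cells, an established line of mouse fibroblasts, received a non-targeting siRNA (siControl) or siRNAs against Apc (siAPC), the tumor suppressor of the Wnt pathway, and were used 72 h later. Serum-starved cells sat for 2 h on filters with 3 μm pores, protruded toward lysophosphatidic acid for 1 h and were fixed in 0.3% paraformaldehyde for 10 min. Protrusions under the filter (Ps) and cell bodies above it (CB) were collected from each siRNA, which gave 4 groups of 4 libraries, named by siRNA and fraction. The groups all share the line, the starvation and the attractant, and the model is a single line that was not authenticated. The study describes the replicates as independent experiments. The labels do not give their cultures, and p-values measure the spread between these libraries.

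Libraries held 13466225 to 20296087 reads in listed genes, and values are log2 CPM (counts of reads relative to library size, CPM, on a log scale, with libraries scaled to each other by the authors). Apc fell to 31.3% of the siControl level in CB and to 27.9% in Ps, with no overlap between siRNAs in either fraction. All 8 fibroblast markers were listed and summed to 37100 to 40500 CPM in siControl CB and 22500 to 24800 CPM in siControl Ps, although Thy1 was at a log2 value of -2.31 in CB. In siAPC the sums were higher, at 47400 to 52500 CPM in CB and 27600 to 30100 CPM in Ps. Epithelial markers summed to at most 10.7 CPM and no adipocyte marker was among the listed genes. The nuclear RNA Malat1 had a mean log2 value of 6.45 in siControl CB and 3.68 in siControl Ps. The share of reads in genes of the mitochondrial genome was 2.65 to 4.16% in siControl Ps and 1.39 to 1.95% in siControl CB, and the part of these contents in the results on carriers was not tested. In 4 libraries (the third of siControl CB and, in each of the other groups, the second) deviations from the group mean fell with the GC content of the transcript (Spearman -0.658 to -0.537 over 10238 genes), and results are also given without them where they change. In 5 further libraries they rose with it (0.432 to 0.543), and the remaining 7 lay between -0.039 and 0.367.

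In siControl cells, most mRNAs of carriers outside mitochondria were lower in protrusions, whereas Slc25a mRNAs lay on both sides of 0. Of 136 other Slc genes, 99 were lower in Ps and 4 were higher (limma, Benjamini-Hochberg adjusted p below 0.05), against 31.2% lower and 29.1% higher over all 13015 genes. Of 36 Slc25a genes, 12 were lower (33.3%) and 10 were higher (27.8%), near the shares over all genes. The median log2 difference, Ps minus CB, was -0.79 for the other Slc genes, -0.07 for Slc25a and 0 for all listed genes. The same medians taken between libraries of the same number, which did not all deviate together in siControl and only serve to show the spread, gave -0.75 ± 0.07 for the other Slc genes and -0.05 ± 0.05 for Slc25a (SD, n = 4). Their difference, Slc25a minus other Slc, was 0.77, 0.68, 0.66 and 0.69 for numbers 1 to 4. In pooled material, fewer copies per cell and fewer cells with the mRNA cannot be told apart.

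The lower level in Ps was seen in each location group of the other Slc carriers, and the part of the route of synthesis in it was not tested. Of 82 plasma membrane carriers, 59 were lower and 1 was higher, where 31.2% and 29.1% of all genes were, with a median of -0.81. For the 18 carriers of the endoplasmic reticulum or Golgi, 15 were lower and 0 were higher, with a median of -0.76. Carriers of endosomes or lysosomes had 12 of 18 lower, 2 higher and a median of -0.61. The 14 with another or a mixed location had 13 lower and a median of -0.85. The 4 proteins that are not carriers had 0 lower, 1 higher and a median of 0.05. Differences between these compartments were described and not tested.

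**Figure D1:**
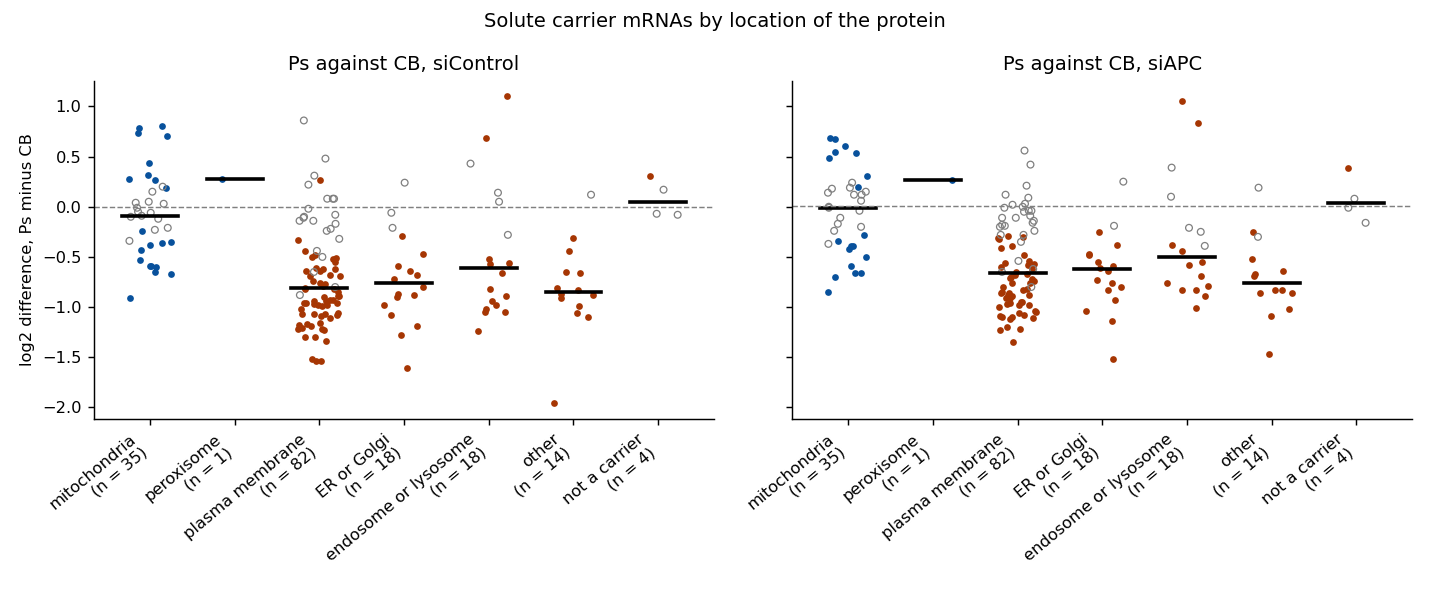
Log2 difference between Ps and CB (vertical axis) of each carrier mRNA by location of its protein (horizontal axis), in siControl on the left and siAPC on the right. Filled points passed an adjusted p of 0.05, open points did not, thick lines are medians, and the dashed line is the median of all listed genes. Medians for plasma membrane carriers are -0.81 and -0.66, and those for mitochondria are -0.09 and -0.01.

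The study took RNAs as Ps-enriched at a fold change above 2 with a p-value below 0.05. Here this p was taken as unadjusted, and the rule was applied in both directions. By it, 33 of the 136 other Slc genes were CB-enriched and 1 was Ps-enriched, where 6.82% and 7.19% of all genes were. The CB-enriched count was 73 when scaled to total listed reads and 13 after the loess correction for GC content and length. The shares of all genes by this rule under these settings are not given here. Scaling to total listed reads also lowered the median of all genes, so these counts cannot be read as particular to carriers. With the deposited scaling neither class held a Slc25a gene, and scaled to total listed reads 1 was CB-enriched. The single Ps-enriched member was Slc30a2, a vesicular zinc transporter with only 7 to 16 reads per library in siControl.

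Among the other Slc genes averaging a log2 CPM of 1 or more, the lowest values belonged to carriers of unlike substrates. Slc39a7, a zinc transporter of the endoplasmic reticulum (chr17:34028269-34031682), had log2 values of 4.09, 3.86, 3.80 and 4.05 in siControl CB and 2.26, 1.93, 2.67 and 2.50 in siControl Ps. The groups did not overlap, and its Ps level was 32.8% of that in CB (log2 difference -1.61 ± 0.14, standard error, adjusted p = 1.3e-08 by limma). Its exons overlap those of a predicted gene on the same strand, so its reads cannot be assigned with certainty. Slc23a2, a sodium-dependent vitamin C transporter (chr2:132052496-132145108), read 7.30, 7.35, 6.78 and 6.96 in CB and 5.67, 5.80, 5.41 and 5.34 in Ps, a drop to 34.3%. Slc26a11, an anion transporter (chr11:119355557-119381079), read 4.04, 3.96, 4.07 and 4.10 in CB and 2.56, 2.38, 2.49 and 2.66 in Ps, a drop to 34.9%. Both kept every Ps library below every CB library.

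The main carrier of glucose in fibroblasts followed the same direction. Slc2a1, the glucose transporter GLUT1 (chr4:119108711-119137983), read 8.72, 8.68, 7.93 and 8.07 in CB and 7.23, 7.31, 6.87 and 6.81 in Ps. Its libraries spread widely within each fraction, with replicates 1 and 2 above 3 and 4 in both, yet the fractions did not overlap and the Ps level was 40.7%. Slc12a9, a member of the cation-chloride cotransporter family, reached 39.6%.

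Several carriers of amino acids and monocarboxylates were lower in Ps as well. Slc1a5, which exchanges glutamine and other neutral amino acids, had a Ps level of 52.3% of that in CB, and Slc38a2, a sodium-coupled neutral amino acid transporter, 52.2%. Slc7a5 and Slc3a2, the light and heavy chains of a neutral amino acid exchanger, had 58.6% and 59.0%. The monocarboxylate transporter Slc16a1 had 54.0%. All 5 passed the adjusted threshold. The cystine carrier Slc7a11 and the sodium-potassium-chloride cotransporter Slc12a2 did not pass it, with log2 differences of -0.44 ± 0.19 (adjusted p = 0.0537) and -0.32 ± 0.17 (adjusted p = 0.103, limma).

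The 4 other Slc names that were higher in Ps were Slc30a4, Slc30a2, Slc38a6 and Slc4a1ap. Slc30a4, a zinc transporter of endosomes (chr2:122681233-122702663), read 3.55, 3.58, 4.76 and 3.51 in siControl CB and 4.45, 4.68, 4.53 and 4.48 in siControl Ps. The third CB library lay above every Ps library, and the log2 difference was 0.69 ± 0.21 with it and 0.99 without it. Deviations of that library fell with GC content (Spearman -0.537, against 0.457 and 0.367 in the first and second). An antisense gene overlaps its exons. Slc38a6 (0.27 ± 0.11, adjusted p = 0.0453, limma) and Slc4a1ap (0.31 ± 0.13, adjusted p = 0.0469, limma), which is a nuclear adaptor and no carrier, lay close to the threshold and lost the call when any of several single libraries was left out. The count of higher genes was 2 to 5 across these omissions, and it dropped to 2 on leaving out siControl CB 1, 2 or 4, siControl Ps 2 or 4, siAPC CB 1 or 4, or siAPC Ps 1.

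**Figure D2:**
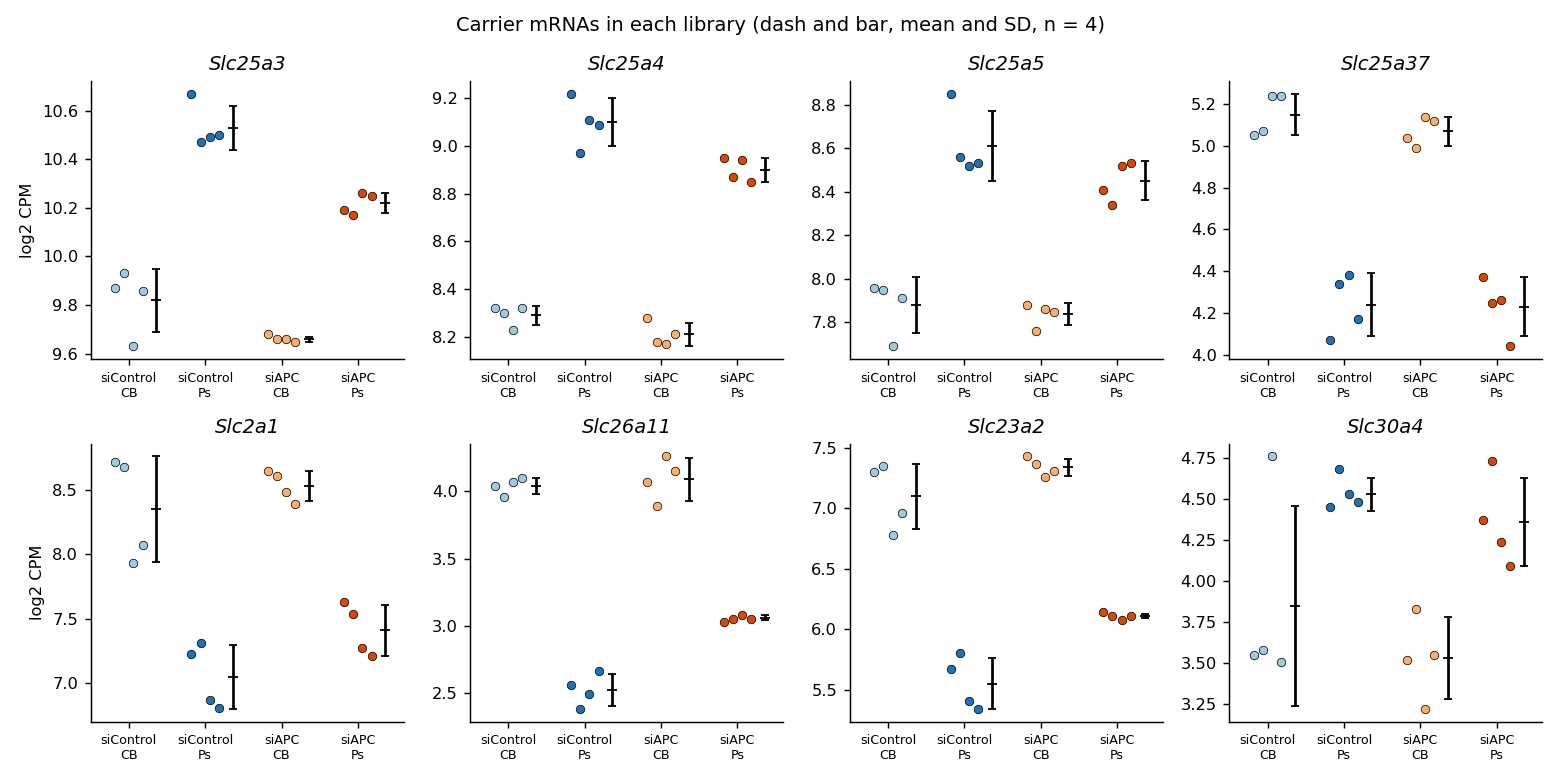
Log2 CPM (vertical axes, which do not start at 0) of 8 carrier mRNAs in the 16 libraries, with 4 points per group and the mean and SD beside them. Slc25a3, Slc25a4 and Slc25a5 are higher in Ps in both siRNAs, Slc25a37, Slc2a1, Slc26a11 and Slc23a2 are lower, and 1 library of Slc30a4 stands apart at 4.76.

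Within the Slc25a family the direction varied with the gene, with shares of calls near those over all genes. The carriers that serve ATP synthesis were all higher in Ps. Slc25a3, the mitochondrial phosphate carrier (chr10:91116574-91124059), read 9.87, 9.93, 9.63 and 9.86 in siControl CB and 10.67, 10.47, 10.49 and 10.50 in siControl Ps, 1.64-fold higher. Slc25a4, an ADP/ATP exchanger (chr8:46206797-46211284), read 8.32, 8.30, 8.23 and 8.32 in CB and 9.22, 8.97, 9.11 and 9.09 in Ps, 1.75-fold higher. Slc25a5, the second ADP/ATP exchanger (chrX:36795651-36798807), read 7.96, 7.95, 7.69 and 7.91 in CB and 8.85, 8.56, 8.52 and 8.53 in Ps, 1.67-fold higher. None of these sets of values overlapped between fractions, and the adjusted p-values from limma were 3e-08, 6.93e-10 and 1.29e-07.

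These 3 mRNAs were also among the most abundant of the family. Per kilobase of transcript, Slc25a3 stood first in siControl CB with 561 CPM per kb, followed by the glutathione carrier Slc25a39 with 305, Slc25a5 with 190, the citrate carrier Slc25a1 with 169 and Slc25a4 with 163. The lowest was the uncoupling protein-like Slc25a27, with 0.815 CPM per kb. Together Slc25a3, Slc25a4 and Slc25a5 made up 53.0% of the summed Slc25a level per kb in siControl CB and 61.7% in siControl Ps.

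Other Slc25a genes that passed the test in the upward direction were Slc25a46 (log2 difference 0.78 ± 0.14), Slc25a39 (0.44 ± 0.08), Slc25a24, Slc25a12, Slc25a17, Slc25a1 and Slc25a11. Slc25a46 is an outer membrane protein that shapes mitochondria rather than a transporter of the inner membrane. It read 3.05, 2.79, 3.60 and 3.06 in CB and 3.94, 4.04, 3.82 and 3.83 in Ps, with no overlap. Slc25a1, Slc25a11, Slc25a12 and Slc25a17 changed by 0.27 ± 0.08, 0.19 ± 0.07, 0.28 ± 0.06 and 0.28 ± 0.07, and these smaller values became -0.02, -0.11, -0.02 and -0.02 when libraries were scaled to their total of listed reads, a scaling that shifted the median of all genes to -0.30. Slc25a13, which like Slc25a12 exchanges aspartate and glutamate, had 0.03 ± 0.09 (adjusted p = 0.817, limma) and was lower under that scaling, at -0.27 (adjusted p = 0.0361, limma).

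Genes of the family with the opposite direction included both iron carriers. Slc25a37, mitoferrin-1 (chr14:69241848-69285112), read 5.05, 5.07, 5.24 and 5.24 in CB and 4.07, 4.34, 4.38 and 4.17 in Ps. Its Ps level was 53.2% of the CB level, the lowest of the 36, and no library crossed over. Slc25a28, mitoferrin-2, had 78.1% (log2 difference -0.36 ± 0.08). Slc25a29 for basic amino acids had 63.6%, Slc25a42 for coenzyme A had 65.9%, and the branched-chain amino acid carrier Slc25a44 had a log2 difference of -0.59. Slc25a27 (-0.67 ± 0.24, adjusted p = 0.021, limma) rested on 16 to 80 reads and its fractions overlapped. It lost the call without siControl CB 3, siControl Ps 3 or siControl Ps 4, where its log2 difference was -0.49, -0.60 and -0.55.

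By role, to be read against 29.1% higher and 31.2% lower over all genes, all 3 genes of ATP synthesis were higher, 2 of 3 di- and tricarboxylate carriers were higher, and both iron carriers were lower. Of 7 amino acid carriers 1 was higher and 3 were lower, and of 8 carriers of cofactors and acyl groups 1 was higher and 3 were lower, so that the lower shares of these groups (42.9% and 37.5%) were not far from that background. Neither pyrimidine nucleotide carrier, Slc25a33 (0.04 ± 0.11) or Slc25a36 (-0.10 ± 0.17), passed the test. Slc25a20, the acylcarnitine carrier, was not analysed here.

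**Figure D3:**
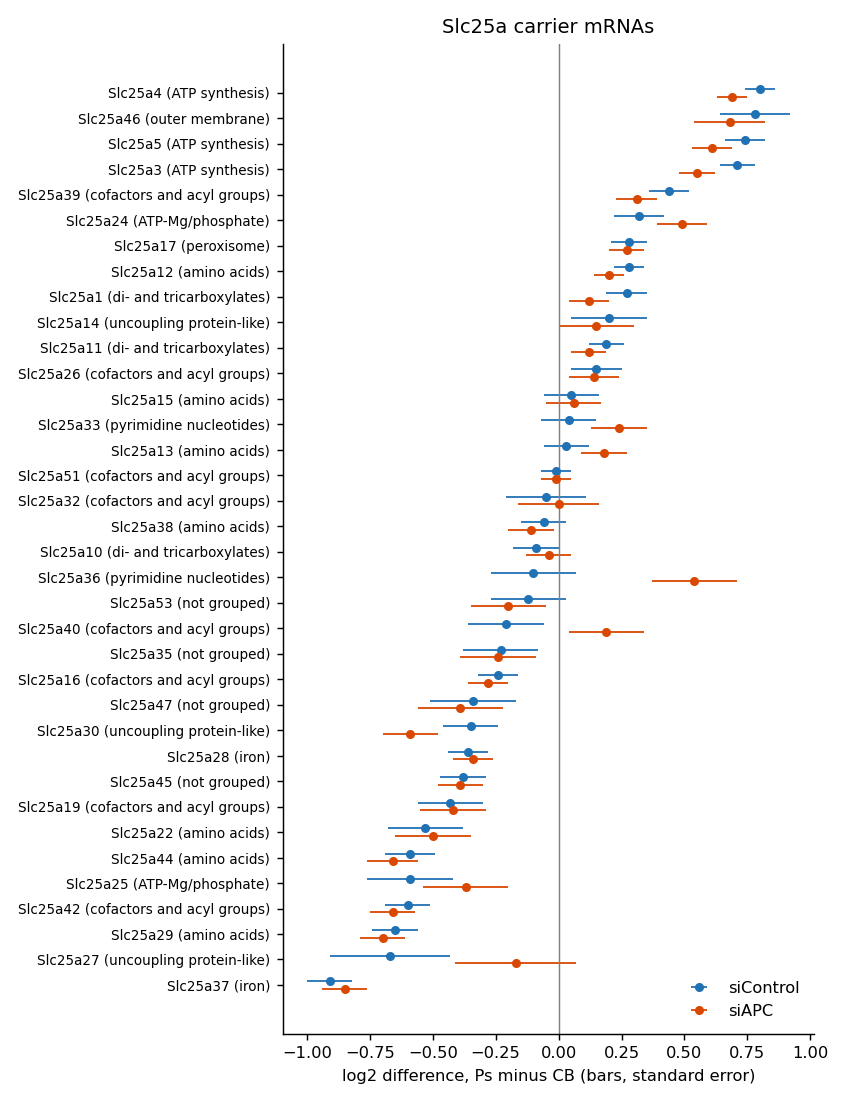
Log2 difference between Ps and CB (horizontal axis, points with standard errors) of the 36 Slc25a mRNAs (vertical axis, with the role of each protein), in siControl and siAPC. The ATP synthesis genes and Slc25a46 lie highest and Slc25a37 lowest in siControl. Scaled to total listed reads, 9 of the 36 change sign in siControl, 4 of them called higher here (Slc25a1, Slc25a11, Slc25a12 and Slc25a17).

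Scaling to total listed reads also changed the Slc25a counts, to 5 higher and 20 lower in siControl, and those of the other Slc genes to 1 higher and 115 lower, where 15.4% and 47.6% of all genes were. Relative to the shift of -0.30 in all genes, the Slc25a median of -0.37 and the other Slc median of -1.09 kept the order found with the deposited scaling.

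The proteins that bring carriers into mitochondria are themselves encoded in the nucleus. Of 14 listed genes of this import apparatus, 11 were higher and 1 was lower in siControl (29.1% and 31.2% of all genes), with a median log2 difference of 0.66. They included the receptor Tomm70a (0.79 ± 0.14), the small outer membrane subunit Tomm7 (1.17 ± 0.07) and the intermembrane chaperones Timm9 (0.61 ± 0.10) and Timm10 (0.22 ± 0.09). Slc25a1 and Slc25a11, with values similar to that of Timm10, changed sign when scaled to total listed reads. The value of Timm10 itself under that scaling is not given here. Tomm40, the channel of the outer membrane, had 0.02 ± 0.08 and Timm22, the insertase of the inner membrane, 0.10 ± 0.08, and neither passed. Agk, a subunit of the same insertase complex, was lower at -0.28 ± 0.10. Of 13 listed mitochondrial transporters that have no Slc25a name, 10 were higher and 1 was lower, against the same shares, with a median of 0.45, among them the pyruvate carrier subunit Mpc2 (0.89 ± 0.08) and the porins Vdac1, Vdac2 and Vdac3 (0.51, 0.51 and 0.60).

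Of 13 listed genes that assist or regulate plasma membrane carriers, 5 were higher (38.5%) and 4 were lower (30.8%), near the shares over all genes of 29.1% and 31.2%, with a median of 0.05. The lowest of the 13 was Txnip, at -1.36, and 1 gene of the list was CB-enriched by the 2-fold rule. The membrane protein Bsg, a chaperone of monocarboxylate transporters, and the ubiquitin ligase Nedd4l were also lower (-0.23 ± 0.07 and -0.29 ± 0.08). The cytosolic kinases that act on cation-chloride cotransporters, Wnk1, Oxsr1 and Stk39, were higher (1.04 ± 0.09, 0.59 ± 0.07 and 0.49 ± 0.09).

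Transcripts of the other Slc genes were longer and richer in GC than those of Slc25a. Median transcript length was 3446 bases for other Slc, 2590 for Slc25a and 2993 for all listed coding genes. Median coding length was 1623, 951 and 1374 bases, and median GC content 52.7, 49.9 and 50.7%. Across 11486 listed coding genes the Ps minus CB difference in siControl had a Spearman correlation of -0.34 with coding length and -0.38 with GC content. Within the families these were -0.27 and -0.17 over 136 other Slc genes, and 0.03 and -0.31 over 36 Slc25a genes. After a loess fit on GC content and transcript length, 99 other Slc genes were lower and 9 higher, and the difference between the medians of Slc25a and other Slc was 0.46 against 0.72 with the deposited values. The number of CB-enriched genes fell from 33 to 13. For these counts after the fit, shares over all genes are not given here.

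In siAPC cells most other Slc mRNAs were also lower in Ps, and Slc25a mRNAs again went in both directions. Of 136 other Slc genes, 93 were lower in Ps and 3 were higher, where 30.9% and 29.8% of all genes were. The number higher was 2 to 5 when single libraries were left out, 5 with quantile normalization and 7 after loess. Of 36 Slc25a genes, 11 were lower (30.6%) and 9 were higher (25%), near the shares over all genes. The medians were -0.64 for other Slc, -0.01 for Slc25a and 0.01 for all listed genes. The other Slc median in siControl was -0.79, and the difference between the siRNAs was not tested for the list. By the 2-fold rule, 20 other Slc genes were CB-enriched and 1 was Ps-enriched, with 5.05% and 7.67% of all genes. The CB-enriched count was 40 scaled to total listed reads and 7 after loess. For counts under the alternative settings, shares over all genes are not given here.

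Leading members kept their direction in siAPC. Slc25a3, Slc25a4 and Slc25a5 were 1.47-fold, 1.62-fold and 1.53-fold higher in Ps, Slc25a46 was 1.60-fold higher, and Slc25a37 was at 55.6% of its CB level. Slc2a1 was at 46.0%, Slc39a7 at 34.8%, Slc23a2 at 42.5%, Slc26a11 at 48.7% and Slc12a9 at 39.3%. Of the members called lower in siControl, 89 other Slc and 10 Slc25a genes were called lower in siAPC as well. Calls shared by both siRNAs were not counted over all genes, so these counts have no background beside them. Slc25a27 (-0.17 ± 0.24, adjusted p = 0.561, limma) and Slc38a6 (0.21 ± 0.11, adjusted p = 0.114, limma) did not pass in siAPC. Slc25a1 and Slc25a11, with 0.12 ± 0.08 (adjusted p = 0.182, limma) and 0.12 ± 0.07 (adjusted p = 0.15, limma), did not pass either, so that 0 of 3 di- and tricarboxylate carriers were called there by limma. With replicate number as a block, Slc25a33 was higher in siAPC Ps at an adjusted p of 0.0217 where it had 0.0835 without the block (limma). The block assumes that same-numbered libraries of siAPC are pairs.

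The change of the Ps/CB ratio with siAPC was tested by the interaction term, log2(Diff FC), for every member. By limma, 0 of 172 members passed the adjusted threshold, with 0.0231% of all genes called. At an unadjusted p below 0.05, 16 members were called, all with a ratio raised in siAPC, against 2.07% raised and 1.71% lowered over all genes. Of these 16, 15 were other Slc genes and 1 was Slc25a36. The median interaction was 0.08 for other Slc genes, 0.11 for plasma membrane carriers, -0.01 for Slc25a and 0 for all genes. Scaled to total listed reads it was 0.22 for other Slc genes, 0.13 for Slc25a (33 of 36 positive, against 14 of 36) and 0.15 for all genes. Voom weights on recovered reads, an alternative added after seeing the data, also gave 0 adjusted calls.

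Slc25a36, a pyrimidine nucleotide carrier (chr9:97074961-97111157), had the largest of these values among members averaging a log2 CPM of 1 or more. It read 2.89, 2.90, 3.41 and 2.74 in siControl CB and 2.86, 3.30, 2.46 and 2.89 in siControl Ps, which overlapped. In siAPC it read 2.75, 2.98, 2.61 and 2.61 in CB and 3.51, 3.40, 3.07 and 3.14 in Ps, which did not. Its interaction was 0.65 ± 0.24 (adjusted p = 0.981 by limma). The next were Slc6a2 (0.61 ± 0.27), the noradrenaline transporter, and the lysosomal carrier Slc46a3 (0.59 ± 0.26), both at adjusted p = 0.981 (limma). Slc26a11 had 0.48 ± 0.13 (adjusted p = 0.789, limma). With the deposited values no member was lowered at an unadjusted p below 0.05. After loess 2 Slc25a genes were, and without siControl Ps 2 it was 1.

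The siRNAs against Apc changed the level of a smaller number of carrier mRNAs in both fractions. In CB, 22 of 136 other Slc genes were higher and 5 were lower in siAPC, where 7.52% and 5.87% of all genes were. In Ps, 36 were higher and 5 were lower, where 10.7% and 11.2% were. The study listed genes above an expression cutoff in at least 1 sample. A gene low in siControl could thus be listed through siAPC libraries alone. Among the 117 other Slc genes averaging a log2 CPM of 1 or more, 15 were higher in CB and 29 in Ps, and 4 were lower in each. The replicate block assumes that same-numbered Ps libraries are pairs, and with it 8 of the 136 were lower in Ps. Of 36 Slc25a genes, 3 were higher and 1 was lower in CB, and 5 were higher and 7 were lower in Ps. The CB counts were 4 higher and 5 lower without the 4 libraries that fell with GC content, 3 and 6 after loess, and 4 and 3 both with the block and without siControl CB 3. Scaled to total listed reads, the Slc25a counts in Ps were 10 higher and 3 lower, and their median moved from -0.03 to 0.14. The Slc25a counts in Ps were 4 higher and 4 lower without siControl Ps 1, 5 and 9 after loess, and 5 and 5 with the block. Of the other Slc genes called higher, 19 were called in both fractions, which is 19 of 22 in CB and 19 of 36 in Ps. Such sharing was not counted over all genes, so it cannot be read as particular to carriers.

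These counts moved with the scaling and the GC correction. Scaled to total listed reads, 72 other Slc genes were higher and 1 was lower in Ps, where 22.6% and 4.23% of all genes were and the median of all genes shifted to 0.14. After the loess fit, 20 were higher and 16 lower in CB (8.25% and 14.8% of the genes with an annotation), and 35 were higher and 15 lower in Ps (10.7% and 21.6%). No named gene called for siAPC against siControl changed sign in a setting tried.

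The largest rises averaging a log2 CPM of 1 or more were those of Slc16a10, Slc6a2, Slc6a7, Slc9a3r2 and Slc12a7. Slc16a10, a transporter of aromatic amino acids (chr10:40033532-40142258), read 3.80, 3.71, 3.79 and 3.97 in siControl CB and 4.92, 5.11, 5.33 and 5.54 in siAPC CB. In Ps it read 2.42, 2.42, 2.70 and 2.87 in siControl and 4.21, 4.25, 4.61 and 4.78 in siAPC. The siRNA groups did not overlap in either fraction, and the rise was 2.65-fold in CB and 3.63-fold in Ps (adjusted p = 1.35e-06 and 2.78e-08, limma). Even after this rise its Ps level in siAPC stayed at 59.0% of that in CB.

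Slc6a2 (chr8:92960079-93001667) had 1.23, 1.92, 1.52 and 1.39 in siControl CB against 2.56, 2.47, 2.75 and 2.51 in siAPC CB. In Ps it had 0.49, 1.00, 0.86 and 0.13 against 2.23, 2.05, 2.47 and 2.41. It rose 2.08-fold in CB and 3.18-fold in Ps without overlap, with only 15 to 27 reads in each siControl Ps library. Slc6a7, a proline transporter, read 1.47, 1.39, 1.47 and 1.53 in siControl CB and 2.61, 2.73, 2.78 and 3.06 in siAPC CB, 2.51-fold higher, and was 2.64-fold higher in Ps. Slc12a7, a potassium-chloride cotransporter, rose 1.74-fold in CB and 1.87-fold in Ps.

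Slc9a3r2 is a scaffold that binds transporters and no carrier itself (chr17:24639286-24650327). It read 2.52, 2.30, 2.26 and 2.68 in siControl CB and 3.59, 3.55, 3.76 and 3.65 in siAPC CB, 2.30-fold higher. In Ps it read 2.60, 2.51, 2.77 and 2.56 in siControl and 3.53, 3.38, 3.87 and 4.10 in siAPC, 2.16-fold higher. Its relative Slc9a3r1, a scaffold of the same type, had log2 differences of 0.04 ± 0.09 and -0.04 ± 0.09.

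Among abundant carriers, Slc1a5 (chr7:16781340-16798274) read 8.44, 8.49, 8.33 and 8.53 in siControl CB and 8.89, 8.88, 9.03 and 9.03 in siAPC CB, 1.43-fold higher. In Ps it read 7.41, 7.52, 7.59 and 7.54 in siControl and 8.21, 8.15, 8.30 and 8.37 in siAPC, 1.68-fold higher, again without overlap. Slc7a5 rose 1.21-fold and 1.24-fold. Its partner Slc3a2 (0.14 ± 0.06 in both fractions) did not pass, except in Ps with the replicate block (adjusted p = 0.0491 against 0.0903, limma). Slc2a1 had 0.18 ± 0.16 in CB and 0.36 ± 0.16 in Ps, and in Ps the block changed its adjusted p from 0.116 to 0.00871 (limma). Slc38a2, Slc12a2, Slc16a1 and Slc7a11 passed in neither fraction.

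Some of the rises lay near the detection limit. Slc6a12, a betaine transporter, had 0 or 1 reads in each siControl library, 3 to 16 reads in siAPC CB and 1 to 10 in siAPC Ps. Slc13a4 had 0 to 6 reads in siControl CB and 7 to 15 in siAPC CB, and Slc1a2, a glutamate transporter, 1 to 3 and 8 to 12. Their fold changes depend on the reads added before the logarithm and are not given. Because listing needed an expression cutoff in only 1 sample, these rises are not independent of the listing.

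Declines with siAPC were fewer. In CB those averaging a log2 CPM of 1 or more were Slc5a3, a myo-inositol transporter (-0.63 ± 0.18, adjusted p = 0.0297, limma), Slc9a5 (-0.44 ± 0.09), the UDP-galactose carrier Slc35a2 (-0.33 ± 0.08) and the creatine transporter Slc6a8 (-0.21 ± 0.07, adjusted p = 0.0445, limma). Slc6a8 lost its call without siControl CB 1, 2 or 4, any siAPC CB library, or siAPC Ps 1, 3 or 4, with a log2 difference of -0.17 to -0.23. Slc5a3 shares exons with a mitochondrial ribosomal protein gene on its strand and lost its call without siControl CB 3 (log2 difference -0.44) or without siAPC CB 1, 3 or 4 (-0.52, -0.63 and -0.63). In Ps they were Slc35a3 (-0.40 ± 0.13), Slc4a3 (-0.31 ± 0.09), Slc9a5 (-0.29 ± 0.09) and Slc35a2 (-0.25 ± 0.08). The remaining gene called lower in both fractions was Slc30a3, a zinc transporter of vesicles, with 5 to 22 reads per library. The counts of 5 lower genes ranged from 2 to 6 in CB and from 2 to 7 in Ps when single libraries were left out. In CB the count was 2 or 3 without any of siAPC CB 1 to 4 or siControl CB 1, 2 or 4, and in Ps without siAPC Ps 1, 3 or 4 or siControl Ps 1 or 2.

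**Figure D4:**
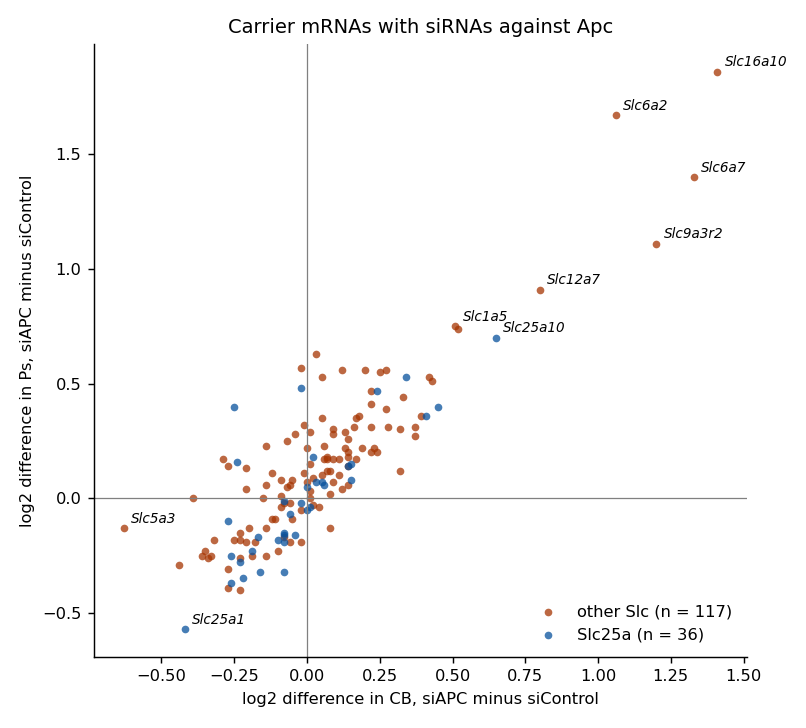
Log2 difference between siAPC and siControl in CB (horizontal axis) and in Ps (vertical axis) of the 36 Slc25a and 117 other Slc mRNAs averaging a log2 CPM of 1 or more. Slc16a10 lies farthest up at 1.41 and 1.86, and Slc25a1 lies lowest in Ps at -0.57.

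In the Slc25a family, carriers of citrate and of dicarboxylates moved in opposite directions with siAPC. Slc25a1, which exports citrate from mitochondria (chr16:17925223-17928219), read 8.22, 8.25, 7.94 and 8.14 in siControl CB and 7.73, 7.70, 7.73 and 7.69 in siAPC CB. In Ps it read 8.45, 8.20, 8.55 and 8.44 in siControl and 7.82, 7.68, 7.90 and 7.95 in siAPC. It fell to 74.6% in CB and 67.2% in Ps (adjusted p = 0.0011 and 3.14e-05, limma), with no overlap.

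Slc25a10, the dicarboxylate carrier (chr11:120491840-120499187), read 6.38, 6.32, 6.16 and 6.33 in siControl CB and 6.96, 6.83, 6.99 and 7.03 in siAPC CB. In Ps it read 6.28, 5.93, 6.33 and 6.31 in siControl and 6.88, 6.70, 6.95 and 7.09 in siAPC. It was 1.57-fold higher in CB and 1.62-fold higher in Ps, and its fractions did not differ beyond their spread in either siRNA. Slc25a29 (0.45 ± 0.09 and 0.40 ± 0.09) and the glycine carrier Slc25a38 (0.41 ± 0.09 and 0.36 ± 0.09) also rose in both fractions.

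The threshold was passed in Ps and not in CB by Slc25a33 (0.53 ± 0.11) and Slc25a25 (0.47 ± 0.17), which rose, and by Slc25a39 (-0.35 ± 0.08), Slc25a30 (-0.32 ± 0.11), Slc25a3 (-0.32 ± 0.07), Slc25a42 (-0.28 ± 0.09), Slc25a16 (-0.23 ± 0.08) and Slc25a4 (-0.19 ± 0.06), which fell. Slc25a25 lay close to the threshold (adjusted p = 0.0474, limma). A difference between fractions in these changes was not called by the interaction. The block removed the calls of Slc25a30 (adjusted p = 0.0549 against 0.0479, limma) and Slc25a16 (adjusted p = 0.0514 against 0.0452, limma). Quantile normalization removed those of Slc25a3 and Slc25a4, whose log2 differences became -0.06 and -0.05. Scaled to total listed reads, 3 Slc25a genes were called lower in Ps, where 7 were with the deposited scaling (both counts over all members of the family). Slc25a5, Slc25a11, Slc25a12, Slc25a13, Slc25a28, Slc25a36 and Slc25a37 passed in neither fraction.

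**Figure D5:**
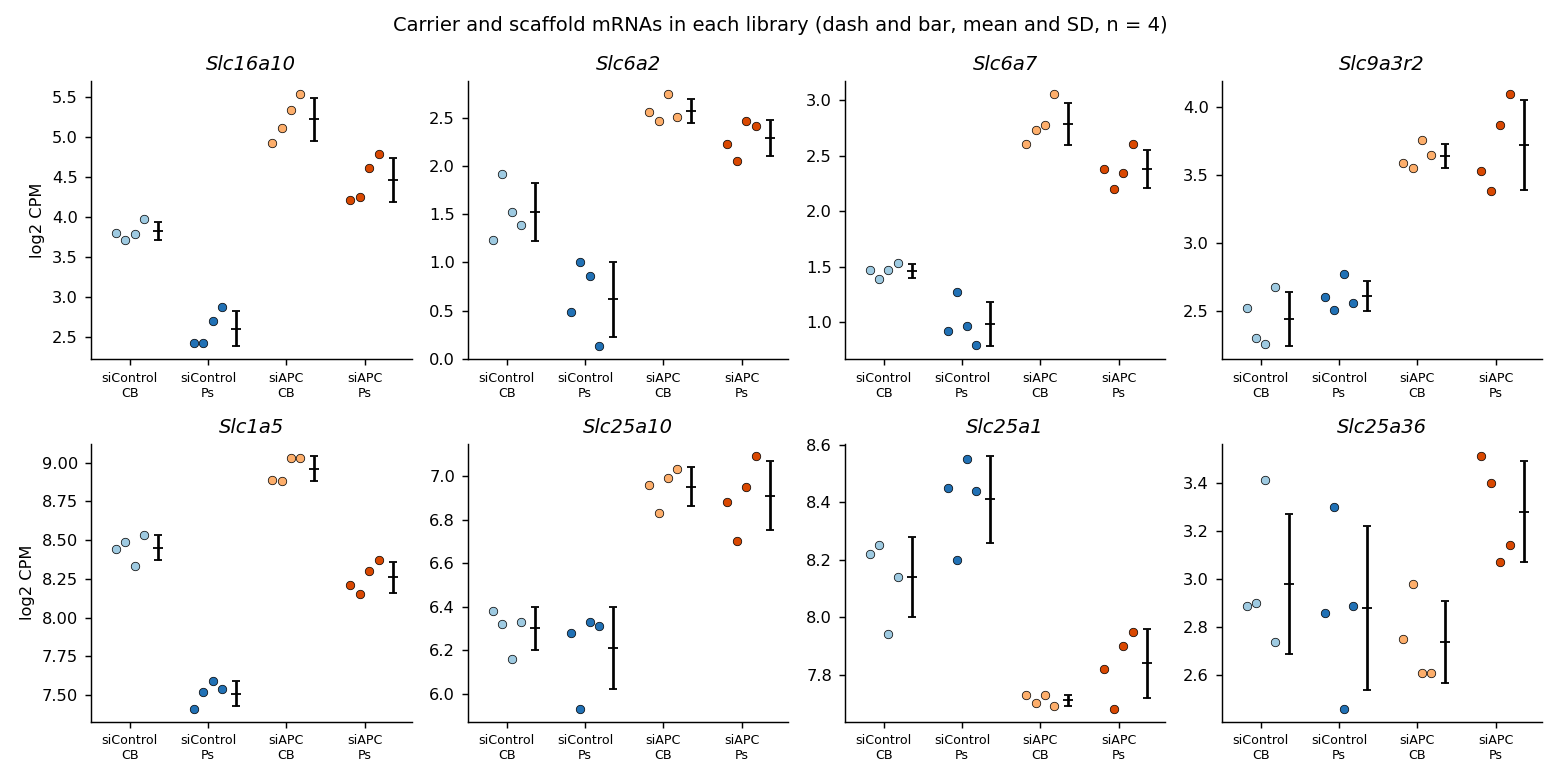
Log2 CPM (vertical axes, most of which do not start at 0) of 7 carrier mRNAs and the scaffold Slc9a3r2 in the 16 libraries, with 4 points per group and the mean and SD beside them. Slc16a10, Slc6a2, Slc6a7, Slc9a3r2, Slc1a5 and Slc25a10 are higher in siAPC than in siControl in both fractions, and Slc25a1 is lower.

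Apc restrains β-catenin, which acts on genes through TCF/LEF factors. The letters CTTTGAT of a TCF/LEF core site were searched on both strands in RefSeq promoter windows of GRCm38.p6, 250 bases before to 50 after a start. They were found in 1225 of 32851 windows (3.73%) and in 9 of 182 windows (4.95%) of the 132 members that matched by symbol. Of the 44 members called higher with siAPC in CB or Ps, 31 matched, and 1 of their 45 windows (2.22%) held the letters. That window belongs to Slc1a2, which rose on few reads. It is shown because it is the only match among the members that rose. The gene spans chr2:102658659-102790784, so the start of this window lies inside it. The reverse complement of the letters is in capitals, at base -207 from that start (chr2:102706188-102706437, plus strand, the 250 bases before that start).
Slc1a2: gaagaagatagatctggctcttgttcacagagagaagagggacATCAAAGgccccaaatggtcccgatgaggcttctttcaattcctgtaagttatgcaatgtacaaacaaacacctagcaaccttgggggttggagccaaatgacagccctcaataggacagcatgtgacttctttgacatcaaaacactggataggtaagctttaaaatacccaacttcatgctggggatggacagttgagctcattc
A match in letters is a description and not a binding site, and windows without a match say nothing about the factor.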

How the data were processed

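RNA of 16 libraries was sequenced from Ps and CB of siControl and siAPC cells. Per the study's methods and the submitters' processing notes, reads were handled with bcl2fastq 1.8.4, aligned with STAR 2.4.2a to mm10, counted with Rsubread on GENCODE release 4 and transformed by voom in limma 3.26.1. The deposited values are log2 CPM, with 0.5 read added by the authors. Whether counting used strand is not given in the sources used here. Whole reads were recovered from 208240 of 208240 values (tolerance 0.01 read).

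Linear models with empirical Bayes moderation and a mean trend (limma 3.58.1, R 4.3.3, Python 3.11.15) were fitted to the deposited values of all 13015 genes and 16 libraries without a replicate block. Contrasts were Ps against CB in each siRNA, siAPC against siControl in each fraction, and their interaction, with Benjamini-Hochberg adjustment over all genes and a threshold of 0.05. ± marks SD for group values and the standard error for contrasts. The code was tested on simulated data.

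Annotation came from GENCODE M21 on GRCm38 (12875 of 13015 genes, all 172 members), and gene coordinates are given on that build. Locations and roles were assigned by hand from textbook knowledge. Members and lists were chosen with earlier results of these data known. A few genes of the class are not reported here. Exons of 11 Slc25a and 35 other Slc genes overlap another gene.

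Named genes were 20 fixed ones and, per contrast, the most changed called members averaging a log2 CPM of 1 or more: for Ps against CB the 4 highest and 4 lowest Slc25a and the 5 highest and 5 lowest other Slc, for siAPC against siControl the 3 and 5 at each end, and for the interaction, where none was called, the 3 most raised with an unadjusted p below 0.05 (none was lowered). Genes outside this rule were chosen after their values were seen.

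Same-numbered libraries deviated together, over 10292 genes, for Ps and CB of siAPC (correlations 0.416 to 0.617) and for Ps of both siRNAs (0.162 to 0.551), and were taken as pairs there only. Mean correlations were 0.502 and 0.345 for same numbers, and -0.165 and -0.112 for different numbers. Different-numbered libraries reached 0.572 and 0.347, above some same-numbered values. The highest same-numbered values were between libraries that fell with GC content, so the pairing is not certain. For Ps and CB of siControl and for CB of both siRNAs the lowest same-numbered correlations were -0.121 and -0.336. Alternatives were other scalings, a filter, more added reads, a replicate block, a loess correction, leaving out 4 libraries or each library in turn, and, added later, voom weights on recovered reads.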

Additional observations from a re-analysis of the deposited data

Results flagged for a closer look

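Of 86 sets of 4 libraries examined, 6 held a library far from the other three by Dixon's ratio, where chance gives about 1 in 20. For Slc25a3, siControl Ps 1 was high at a log2 value of 10.67. For Slc25a5, siControl Ps 1 was high at 8.85 and siControl CB 3 was low at 7.69. For Slc25a10, siControl Ps 2 was low at 5.93, and for Slc30a4, siControl CB 3 was high at 4.76. The share of reads in genes of the mitochondrial genome was high in siControl CB 3 at 1.95%.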

How the results depend on the processing

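Counts are of genes called, in the order given. Scaled to total listed reads, Slc25a in siControl had 5 higher and 20 lower in Ps, other Slc had 1 higher, and CB-enriched other Slc numbered 73 in siControl and 40 in siAPC. With siAPC in Ps, 72 other Slc were higher and 1 lower. Slc25a1 (-0.02), Slc25a11 (-0.11), Slc25a12 (-0.02), Slc25a13 (-0.27) and Slc38a6 (-0.03) were the genes of the naming rule that changed sign in siControl Ps against CB and were called in at least 1 of the scalings, among 9 Slc25a and 10 other Slc in all, of which Slc25a17 (-0.02) was also called higher with the deposited scaling. After loess, other Slc higher in Ps were 9 and 7, CB-enriched ones 13 and 7, and the median differences 0.46 and 0.41, in siControl and siAPC. With siAPC, 16 other Slc were lower in CB and 15 in Ps, and 9 Slc25a were called in CB. The replicate block gave 7 Slc25a called in CB and 8 other Slc lower in Ps, and it changed no other count by over 1.5 times. Without the 4 libraries that fall with GC content 9 Slc25a were called in CB. Quantile normalization gave 5 other Slc higher in siAPC Ps against CB and 8 lower with siAPC in Ps. Voom weights gave 2 higher in siControl and 3 lower with siAPC in Ps. A fold change above 1.5 gave 87 and 71 CB-enriched. Where no share of all genes is given for a setting, a shift over all genes and one in carriers cannot be told apart.

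Leaving out single libraries gave ranges of 2 to 5 other Slc higher in Ps in siControl and 2 to 5 in siAPC (5 without siAPC CB 2, Ps 3 or Ps 4), 2 to 6 lower with siAPC in CB, 2 to 7 in Ps, 4 to 7 Slc25a called in CB (7 without siControl CB 3), and a median difference of 0.64 to 0.75 in siControl (0.64 without siControl Ps 1). The causes were not tested. Of the values of named genes, 3371 gave the same call as with the deposited values, and these include 65 (of 23 results) that changed sign while called in neither setting. A further 135 lost and 65 gained the call, and 5 called in at least 1 setting changed sign as above. Count models (edgeR and DESeq2) on the recovered reads were planned and not run. The depth of low genes, such as Slc6a12 and Slc13a4, limits their fold changes.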

Other observations

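Mitochondrial ribosomal protein genes, a list chosen after values were seen, had 67 of 76 genes higher in siControl Ps and 62 of 76 in siAPC Ps, with 0 lower in either by limma, where 29.1% and 29.8% of all genes were higher. Their median log2 differences were 0.52 and 0.43.

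The uncoupling protein gene Ucp2, which lies outside the Slc names, was higher in siControl Ps (0.23 ± 0.08, adjusted p = 0.0246, limma), and in siAPC the value was 0.14 ± 0.08. Slc25a1 and Slc25a11, with siControl values of similar size, changed sign when scaled to total listed reads. The value of Ucp2 itself under that scaling is not given here. Among abundant amino acid carriers, Slc1a4 had log2 differences, Ps minus CB, of -1.22 ± 0.08 in siControl and -1 ± 0.08 in siAPC, and it was 1.43-fold higher with siAPC in CB and 1.67-fold higher in Ps. The thioredoxin-interacting protein gene Txnip, whose product lowers glucose transporters at the surface, was lower in Ps (-1.36 ± 0.20 in siControl and -1.20 ± 0.20 in siAPC).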
